A study of Mus musculus with 13 samples.

Results

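The genes described here are those of the major histocompatibility complex (MHC) and of antigen processing in the mouse submandibular gland, a major salivary gland. They were taken from the deposited normalized table as every gene whose symbol starts with H2-, together with B2m, Tap1, Tap2, Tapbp, Nlrc5, Psmb8, Psmb9, Psmb10, Cd74 and Ciita, which gave 37 of 17957 genes. Class I comprised 19 of them, class II 11, and the supply of peptides 6, while H2-K2, a transcribed pseudogene, belonged to none of these lists. Of the 37, 36 passed the filter on low counts and were among the 14727 genes tested. H2-M5 did not pass and had at most 10 reads in a library.

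The 13 libraries came from mice of 1 year of age, of a strain labelled CH3, with glands taken 300 days after treatment. In 5 libraries, called PreIR-GFP, an adeno-associated virus coding for green fluorescent protein (AAV2-GFP) had been injected 10 days ahead of irradiation, and in 5 others, called PreIR-NTN, the injected vector was Cere-120, an AAV2 vector for the neuronal growth factor neurturin. The remaining 3 libraries (NonIR) were from mice without irradiation, and their labels do not state a vector. Irradiation and vector can therefore not be told apart in either comparison with NonIR. Between the irradiated groups, the presence of neurturin and the absence of GFP cannot be told apart. Since no label links a replicate to its own animal, p-values measure only the spread between these libraries, which may be technical.

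MHC class I molecules carry peptides from inside the cell to its surface for inspection by CD8+ T cells and natural killer cells. Each consists of a polymorphic heavy chain (H2-K1, H2-D1) and the invariant light chain B2m. The peptides are cut by the immunoproteasome, pumped into the endoplasmic reticulum by the transporter made of Tap1 and Tap2, and loaded with the help of Tapbp. Class II molecules (H2-Aa with H2-Ab1, and H2-Ea with H2-Eb1) present peptides taken up from outside, mainly on dendritic cells, macrophages and B cells. They rely on the invariant chain Cd74 and the peptide editor H2-DM, which H2-O inhibits. Nlrc5 and Ciita are the transactivators of class I and class II genes, and interferon raises both sets of genes in many cell types.

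Of the 37 genes, 32 lay on chromosome 17. A RefSeq promoter entry (build GRCm38.p6, reference strain C57BL/6J) was matched for 26 of the 37. The 250 bases before the RefSeq start are shown for 6 of them, to set class I, class II and peptide supply genes beside each other. Capitals mark 4 motifs, each searched on both strands: CCAAT (the Y box, written ATTGG in the other orientation), TGACG (the core of the X2 element), and 2 stretches of 11 bases read from the H2-D1 window, which are the palindrome GGGGATTCCCC (a site of the NF-kappaB type) and AGTTTCACTTC (the place of the interferon response element known in class I promoters). Adjacent TGACG matches on opposite strands overlap in H2-Aa. The windows are chr17:34000348-34000597 (minus strand) for H2-K1, chr17:35262844-35263093 (plus) for H2-D1, chr2:122147437-122147686 (plus) for B2m, chr17:34187306-34187555 (plus) for Tap1, chr17:34287824-34288073 (minus) for H2-Aa and chr17:34305617-34305866 (plus) for H2-Eb1. RefSeq and GENCODE starts can differ: the GENCODE interval of H2-D1 begins at base 35262730, so that the H2-D1 window lies within it.
H2-K1: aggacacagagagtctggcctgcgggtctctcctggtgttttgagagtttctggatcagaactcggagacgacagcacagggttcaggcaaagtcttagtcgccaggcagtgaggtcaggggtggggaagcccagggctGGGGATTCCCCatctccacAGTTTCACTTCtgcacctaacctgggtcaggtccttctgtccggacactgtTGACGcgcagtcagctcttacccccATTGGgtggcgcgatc
H2-D1: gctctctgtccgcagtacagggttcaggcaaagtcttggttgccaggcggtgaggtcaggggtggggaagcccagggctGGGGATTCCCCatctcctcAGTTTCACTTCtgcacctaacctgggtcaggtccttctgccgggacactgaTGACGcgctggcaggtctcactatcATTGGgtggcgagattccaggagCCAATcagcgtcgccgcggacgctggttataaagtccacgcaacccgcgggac
B2m: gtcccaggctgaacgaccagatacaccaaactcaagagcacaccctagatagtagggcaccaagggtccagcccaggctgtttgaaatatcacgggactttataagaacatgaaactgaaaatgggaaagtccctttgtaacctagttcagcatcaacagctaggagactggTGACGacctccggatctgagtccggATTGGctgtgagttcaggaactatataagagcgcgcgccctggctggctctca
Tap1: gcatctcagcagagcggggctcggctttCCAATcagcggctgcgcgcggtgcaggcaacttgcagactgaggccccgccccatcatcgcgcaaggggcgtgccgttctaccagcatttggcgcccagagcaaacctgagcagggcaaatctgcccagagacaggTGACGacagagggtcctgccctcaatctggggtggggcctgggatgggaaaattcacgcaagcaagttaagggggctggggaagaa
H2-Aa: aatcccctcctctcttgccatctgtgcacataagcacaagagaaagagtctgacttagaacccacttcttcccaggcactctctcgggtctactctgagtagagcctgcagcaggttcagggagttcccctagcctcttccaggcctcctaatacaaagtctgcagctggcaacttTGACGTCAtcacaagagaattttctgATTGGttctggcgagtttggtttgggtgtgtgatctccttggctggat
H2-Eb1: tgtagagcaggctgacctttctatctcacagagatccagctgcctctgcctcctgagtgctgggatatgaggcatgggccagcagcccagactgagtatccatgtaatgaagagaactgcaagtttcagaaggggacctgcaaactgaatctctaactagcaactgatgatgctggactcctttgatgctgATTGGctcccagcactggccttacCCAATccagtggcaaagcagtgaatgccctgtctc
The classical heavy chains H2-K1 and H2-D1 both held the palindrome and the interferon response letters, at the same spacing, although both lie nearer to the RefSeq start in H2-K1 (palindrome at -111 to -101) than in H2-D1 (-171 to -161). Over 27026 genes with a promoter entry, the palindrome occurred in 7 (0.0259%) and the interferon response letters in 13 (0.0481%). Among the 14 class I promoters matched, 3 held the palindrome (H2-K1, H2-D1 and H2-Q6) and 6 the interferon response letters. Neither was found in the 7 class II or the 5 peptide supply windows. The Y box occurred in 12 of 14 class I, 6 of 7 class II and 3 of 5 peptide supply windows, against 34.5% of all promoters. TGACG occurred in 8 of 14 class I and 1 of 7 class II windows, against 17.8% of all. The 2 longer stretches were taken from a class I gene and class I genes are close copies of each other, so these matches are not independent, and a match describes letters and not the binding of a factor.

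Libraries held 9724301 to 16771003 reads. The tissue label fitted the levels of its secretory markers: 6 acinar genes (among them Aqp5 and Smgc) summed to between 47062.5 and 202785 CPM (the count of a gene relative to the depth of its library, with TMM factors), and 5 granular tubule genes (among them Egf and Klk1) to between 12004 and 28237 CPM. The lowest acinar and granular tubule sums were both in PreIR-GFP 1. The transgene entry tg_EGFP and the vector entry tg_AAV2 had 0 reads in all 13 libraries, so the vector labels could not be checked with them. Nrtn, the mouse gene of neurturin, was at 2.33, 5.15 and 7.11 CPM in NonIR, at 2.68, 7.99, 10.95, 6.95 and 2.496 CPM in PreIR-GFP and at 10.9, 3.29, 4.81, 6.89 and 12.8 CPM in PreIR-NTN. The groups overlapped for Nrtn. Whether counts of the mouse gene include neurturin reads from the vector was not tested, so Nrtn cannot check the vector labels. PreIR-GFP 4, the deepest library, and PreIR-GFP 2 stood apart from the others for the genes described here. PreIR-GFP 4 was the highest of all 13 libraries for 32 of the 36 genes tested and PreIR-GFP 2 was among the highest 2 for 24. Over all 14727 genes, PreIR-GFP 4 was highest for 6.55% and PreIR-GFP 2 was among the highest 2 for 12.1%. PreIR-NTN 3 was lowest for 16 of the 36, against 8.29% of all genes. Results that rest on them are therefore also given without PreIR-GFP 2 and PreIR-GFP 4. Leaving out the highest libraries of a group lowers that group by construction.

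**Figure D1:**
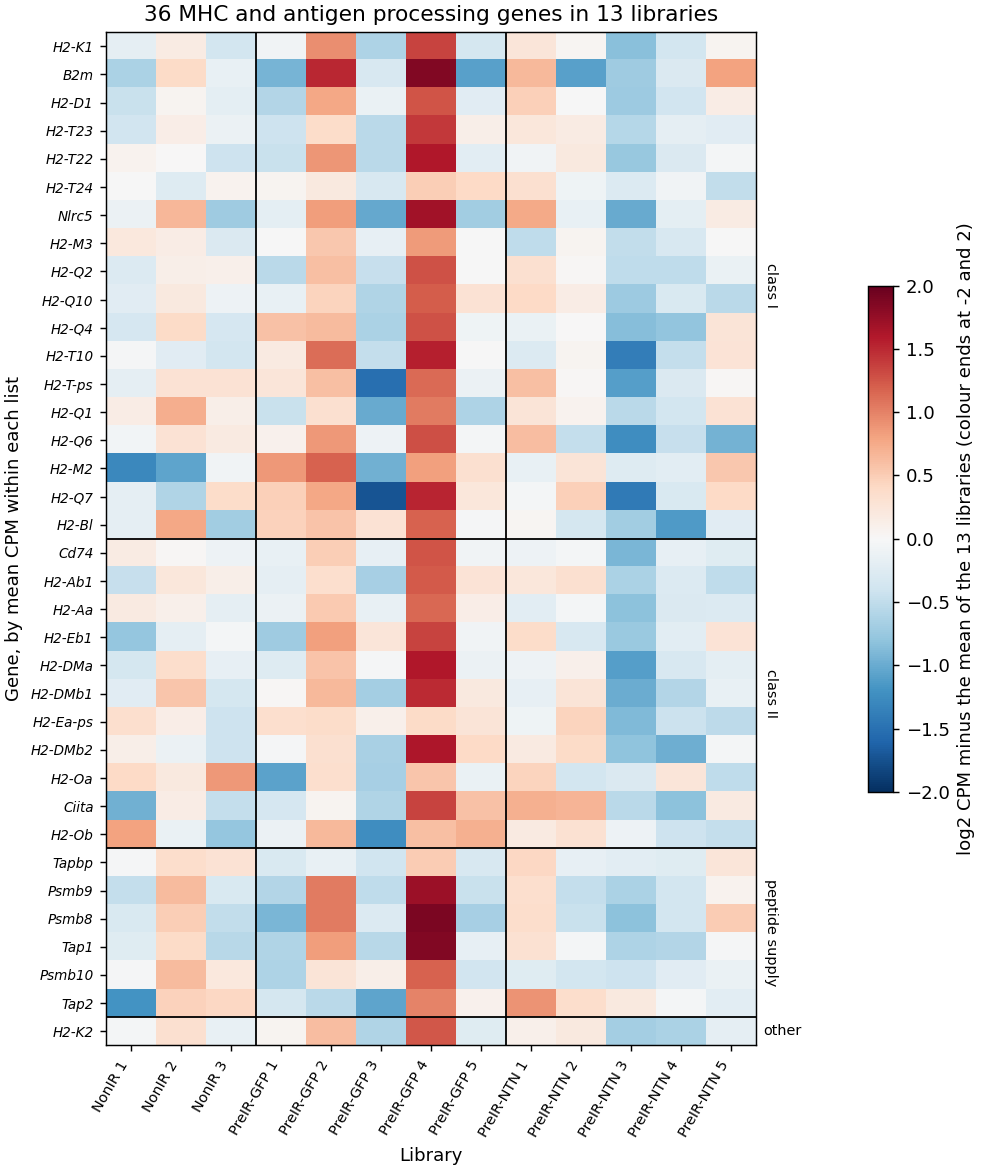
Level of the 36 genes tested (rows, by list and mean CPM) in the 13 libraries (columns, in the order NonIR, PreIR-GFP, PreIR-NTN), as log2 CPM minus the gene's mean over the 13 libraries. PreIR-GFP 4 is the darkest red column in all lists, PreIR-GFP 2 comes next for class I and class II, and PreIR-NTN 3 is the bluest column for class I and class II.

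No gene of the set passed the threshold in any of the 3 comparisons. H2-K1, a classical class I heavy chain (chr17:33996017-34000347 on GRCm38), was the most abundant by reads. Its level was 786, 993 and 688 CPM in NonIR 1 to 3. In PreIR-GFP 1 to 5 it was 841, 1691, 576, 2253 and 693 CPM. In PreIR-NTN 1 to 5 it was 1049, 909.6, 498, 690.2 and 923 CPM. PreIR-GFP 2 and 4 lay above every other library, and the remaining 3 PreIR-GFP libraries lay within the range of PreIR-NTN, so the groups overlapped. The log2 fold change of PreIR-NTN against PreIR-GFP was -0.57 with a standard error (SE) of 0.37 and an edgeR adjusted p of 0.918. Without PreIR-GFP 2 and 4 it was 0.21 (SE 0.22, adjusted p = 0.8745).

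H2-D1, the other classical heavy chain (chr17:35262730-35267499), was at 156, 222 and 188 CPM in NonIR, at 143, 365, 196, 512 and 182 CPM in PreIR-GFP 1 to 5, and at 297, 212, 129, 164 and 238 CPM in PreIR-NTN 1 to 5. The same pair of PreIR-GFP libraries was highest. Its log2 fold change of PreIR-NTN against PreIR-GFP was -0.42 (SE 0.34, adjusted p = 0.951), and 0.26 without PreIR-GFP 2 and 4.

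B2m, the light chain that every class I heavy chain needs to reach the surface, was the most variable of the 36 genes within groups. Its level was 226, 457 and 318 CPM in NonIR and 184, 1002, 280.4, 1272 and 165 CPM in PreIR-GFP 1 to 5. In PreIR-NTN 1 to 5 it was 549, 165, 215, 286 and 613 CPM. The highest library was 7.70 times the lowest, and both lay in PreIR-GFP. The within-group standard deviation (SD) of log2 CPM was 1.05 for B2m, against a median of 0.60 for the 36 genes and 0.32 for all genes tested. Comparing PreIR-NTN with PreIR-GFP, the log2 fold change was -0.67 (SE 0.64, adjusted p = 0.977), and it was 0.80 without PreIR-GFP 2 and 4, so the direction rested on those libraries.

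Nlrc5, the class I transactivator, was also highest in PreIR-GFP 4 and 2. It was at 12.5, 21.6 and 8.25 CPM in NonIR, at 11.8, 24.3, 6.65, 43.6 and 8.38 CPM in PreIR-GFP and at 23.1, 12.2, 6.68, 11.9 and 15.3 CPM in PreIR-NTN. PreIR-NTN 1 came close behind them, and PreIR-GFP 3 was lowest of all 13. The log2 fold change of PreIR-NTN against PreIR-GFP was -0.45 (SE 0.53, adjusted p = 0.987), 0.11 without PreIR-GFP 4 alone, and 0.63 without PreIR-GFP 2 and 4.

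The nonclassical class I genes, whose products act in recognition by natural killer cells and unconventional T cells, were led by H2-T23 (49.0 to 195 CPM), H2-T22 (25.3 to 131 CPM) and H2-T24 (25.9 to 51.1 CPM). H2-T23 encodes Qa-1, the ligand of the NKG2A receptor. H2-T24 had the smallest within-group SD of the 36 genes, 0.29 on the log2 scale. The remaining nonclassical genes were below 17 CPM in every library. Of these, H2-M3, which presents formylated peptides, ranged from 6.31 to 16.4 CPM, H2-T10 from 1.06 to 9.04 CPM, H2-Q6 from 0.489 to 3.51 CPM and H2-Bl from 0.145 to 1.28 CPM. H2-Bl rested on at most 19 reads in a library, and 3 reads, the limit that a count of 0 allows, correspond to 0.176 to 0.253 CPM. Such intervals and limits cover counting error only.

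H2-M2, another nonclassical class I gene, had its lowest values in NonIR 1 and 2. Its level was 0.411, 0.506 and 1.14 CPM in NonIR, 2.32, 2.90, 0.547, 2.23 and 1.55 CPM in PreIR-GFP and 1.08, 1.47, 0.978, 1.02 and 1.82 CPM in PreIR-NTN. PreIR-GFP 3 lay inside the NonIR range and the groups overlapped. H2-M2 rested on few reads, with 6, 6 and 14 in NonIR, 7 in PreIR-GFP 3 and at most 44 in a library. The log2 fold change of PreIR-GFP against NonIR was 1.48 (SE 0.49, unadjusted p = 0.00807, adjusted p = 0.407), and 1.11 without PreIR-GFP 2 and 4.

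**Figure D2:**
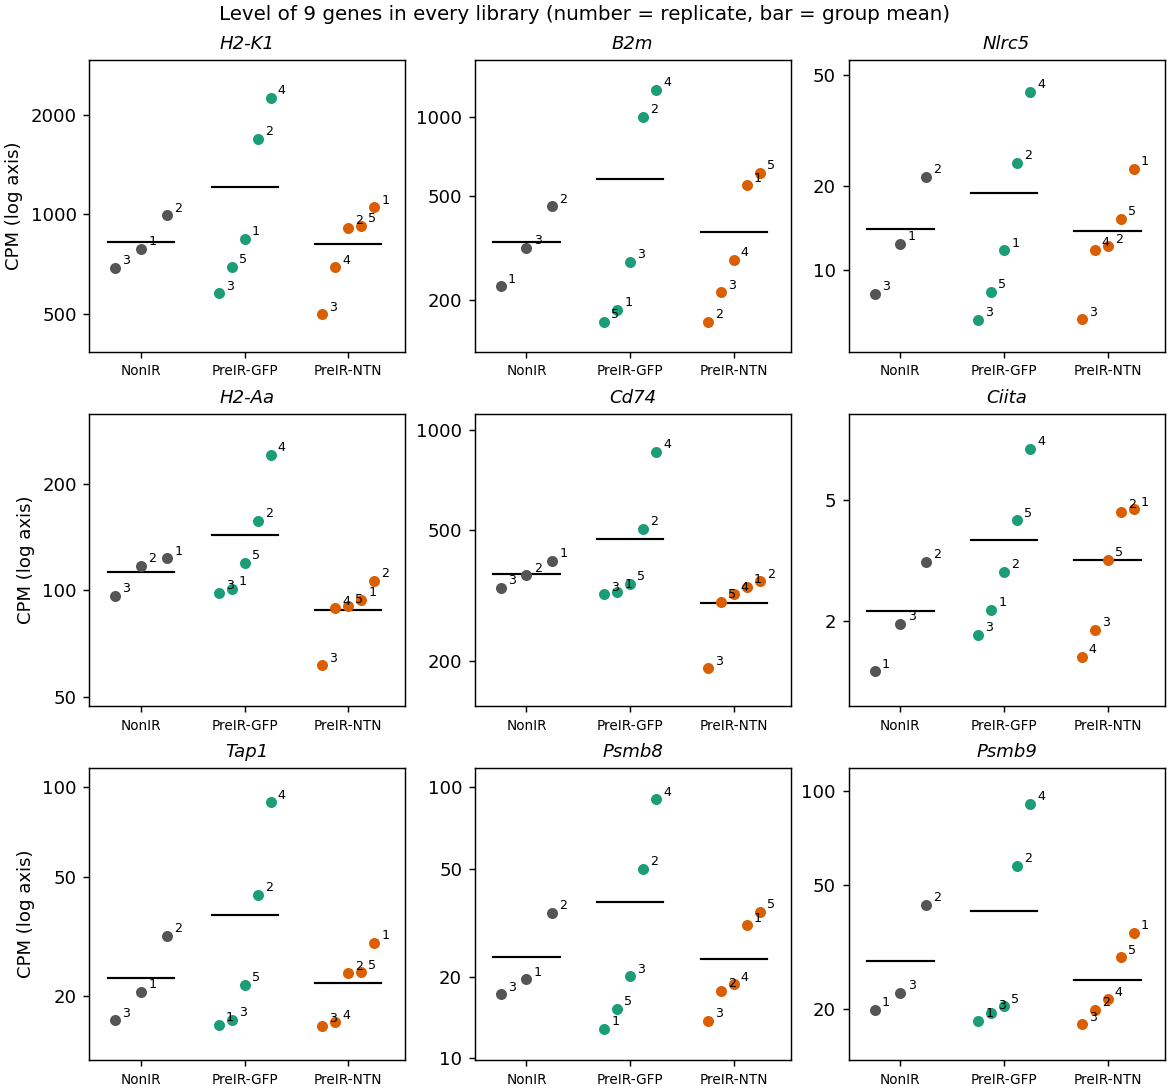
CPM (log axis) of 3 class I genes (top row), 3 class II genes (middle row) and 3 peptide supply genes (bottom row) in the 3 groups. Each point is a library, its number the replicate and the bar the group mean. PreIR-GFP 4 is the highest point in all 9 panels, PreIR-GFP 2 is next in 8 of them, and the other 3 PreIR-GFP libraries overlap both other groups.

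Among class II genes, the alpha chain H2-Aa (chr17:34282744-34287823) had the lowest p of the 36 genes between the irradiated groups. It was at 123, 118 and 96.8 CPM in NonIR, at 101, 157, 98.3, 242 and 119.5 CPM in PreIR-GFP and at 94.0, 106, 61.4, 89.0 and 90.2 CPM in PreIR-NTN. PreIR-NTN 2 was the only PreIR-NTN library above the lowest PreIR-GFP library. For PreIR-NTN against PreIR-GFP its log2 fold change was -0.70 (SE 0.23, unadjusted p = 0.00793, adjusted p = 0.691). It was -0.27 (SE 0.17, adjusted p = 0.788) without PreIR-GFP 2 and 4, the same direction at a smaller size.

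H2-Ab1, the beta chain that pairs with H2-Aa, was at 83.8, 136 and 126 CPM in NonIR, at 102, 147, 73.3, 271 and 140.5 CPM in PreIR-GFP and at 135, 144, 74.5, 95.5 and 81.3 CPM in PreIR-NTN. H2-Eb1, the beta chain of the second class II molecule (chr17:34305867-34316674), was at 49.2, 74.3 and 82.1 CPM in NonIR, at 51.3, 148, 99.0, 214 and 79.9 CPM in PreIR-GFP and at 108, 67.4, 50.02, 72.5 and 101 CPM in PreIR-NTN. Their log2 fold changes of PreIR-NTN against PreIR-GFP were -0.47 (SE 0.32, adjusted p = 0.931) and -0.57 (SE 0.35, adjusted p = 0.916), and 0.01 and 0.06 without PreIR-GFP 2 and 4. H2-Eb1 also had the third lowest p for PreIR-GFP against NonIR, with a log2 fold change of 0.79 (SE 0.42, adjusted p = 0.649).

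H2-Ea-ps, the alpha chain that would pair with H2-Eb1, is annotated as a polymorphic pseudogene because the reference strain carries a defective allele. It had reads in all 13 libraries, from 3.58 CPM in PreIR-NTN 3 to 9.15 CPM in PreIR-NTN 2. Its log2 fold change of PreIR-NTN against PreIR-GFP was -0.52 (SE 0.22, adjusted p = 0.802) and it changed little, to -0.46, without PreIR-GFP 2 and 4.

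Cd74, the invariant chain that guides class II molecules to the compartments where peptides are loaded, was the most abundant class II gene. Its level was 404, 364 and 334 CPM in NonIR, 325, 504, 319, 861 and 343 CPM in PreIR-GFP and 336, 349, 191, 319.7 and 302 CPM in PreIR-NTN. Apart from PreIR-GFP 2 and 4 on the high side and PreIR-NTN 3 on the low side, the libraries lay between 302 and 404 CPM. The log2 fold change of PreIR-NTN against PreIR-GFP was -0.65 (SE 0.27, adjusted p = 0.8), and -0.13 without PreIR-GFP 2 and 4.

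Ciita, the class II transactivator, was at 1.37, 3.12 and 1.96 CPM in NonIR, at 2.18, 2.90, 1.80, 7.35 and 4.28 CPM in PreIR-GFP and at 4.66, 4.57, 1.87, 1.52 and 3.17 CPM in PreIR-NTN. It rested on at most 109 reads in a library. PreIR-GFP 4 was highest, but the next were PreIR-NTN 1 and 2, unlike the order of the chains it controls. Comparing PreIR-NTN with PreIR-GFP, the log2 fold change was -0.22 (SE 0.41, adjusted p = 0.998), and 0.80 (SE 0.50, adjusted p = 0.7075) for PreIR-GFP against NonIR. Without PreIR-GFP 2 and 4 these were 0.19 and 0.38.

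The peptide editor H2-DM was measured by H2-DMa (4.89 to 32.8 CPM), H2-DMb1 (4.64 to 26.6 CPM) and H2-DMb2 (2.47 to 15.6 CPM), each highest in PreIR-GFP 4. H2-O, the inhibitor of H2-DM, was measured by H2-Oa and H2-Ob, which did not follow this order. H2-Oa ranged from 2.25 CPM in PreIR-GFP 1 to 9.07 CPM in NonIR 3. Its log2 fold changes were -0.60 (SE 0.33, adjusted p = 0.658) for PreIR-GFP and -0.58 (SE 0.33, adjusted p = 0.723) for PreIR-NTN, each against NonIR. The first was -1.11 (adjusted p = 0.264) without PreIR-GFP 2 and 4. H2-Ob ranged from 0.547 CPM in PreIR-GFP 3 to 2.74 CPM in NonIR 1, with at most 43 reads.

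The genes of peptide supply spread more within groups than the other lists, with a median within-group SD of 0.72 on the log2 scale against 0.60 for class I and 0.59 for class II. Tap1, a subunit of the peptide transporter (chr17:34187553-34197225), was at 20.7, 31.7 and 16.6 CPM in NonIR, at 16.0, 43.6, 16.7, 88.9 and 21.8 CPM in PreIR-GFP and at 30.2, 23.8, 15.9, 16.3 and 24.03 CPM in PreIR-NTN. PreIR-GFP 4 was 5.59 times the lowest library, PreIR-NTN 3. The log2 fold change of PreIR-NTN against PreIR-GFP was -0.76 (SE 0.47, adjusted p = 0.916), and 0.28 without PreIR-GFP 2 and 4.

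Psmb8, a catalytic subunit of the immunoproteasome, was at 19.6, 34.3 and 17.2 CPM in NonIR, at 12.8, 50.1, 20.1, 90.2 and 15.2 CPM in PreIR-GFP and at 30.9, 17.8, 13.8, 18.8 and 34.7 CPM in PreIR-NTN. Psmb9, another catalytic subunit, was at 19.98, 43.3 and 22.6 CPM in NonIR, at 18.4, 57.6, 19.5, 91.0 and 20.4 CPM in PreIR-GFP and at 35.2, 19.9, 17.9, 21.5 and 29.3 CPM in PreIR-NTN. In both, PreIR-GFP 4 and 2 were the highest of all 13 libraries. Their log2 fold changes of PreIR-NTN against PreIR-GFP were -0.70 (SE 0.54, adjusted p = 0.9445) and -0.74 (SE 0.48, adjusted p = 0.918), and 0.53 and 0.35 without PreIR-GFP 2 and 4.

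Psmb10, the remaining immunoproteasome subunit, ranged from 16.1 to 25.5 CPM in NonIR, from 10.7 to 37.3 CPM in PreIR-GFP and from 12.3 to 14.99 CPM in PreIR-NTN. It was the only gene of the 36 whose groups did not overlap in a comparison, being lower in all 5 PreIR-NTN libraries than in all 3 NonIR libraries, a pattern that 3.30% of all genes tested showed in that direction and 3.22% in the other. The log2 fold change of PreIR-NTN against NonIR was -0.57 (SE 0.32, unadjusted p = 0.091, adjusted p = 0.713). Tapbp, the chaperone that holds class I at the transporter, ranged only from 40.4 to 75.7 CPM. Tap2, the other transporter subunit, ranged from 6.50 to 30.2 CPM. Tapbp and Tap2 had log2 fold changes of 0.12 and 0.29 for PreIR-NTN against PreIR-GFP, against the direction of the other 4.

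PreIR-NTN against PreIR-GFP compares a neurturin vector with a GFP vector, both given before irradiation. In it the log2 fold change was below 0 for 33 of 36 genes, against 52.7% of all genes tested, and above 0 for 3, against 47.3%. The median was -0.57 for the 36 genes and -0.01 for all genes. It was below 0 for 18 of 18 class I genes (median -0.56), 10 of 11 class II genes (median -0.57) and 4 of 6 peptide supply genes (median -0.62). None of the 36 passed an edgeR adjusted p of 0.05, where 0.0204% of all genes passed as lower and 0% as higher, and the smallest adjusted p among them was 0.691. At an unadjusted p under 0.05, 9 were lower and 0 higher, against 3.56% and 2.22% of all genes. The 9 were H2-Aa, H2-Bl, H2-M3, H2-T10, H2-Q6, Cd74, H2-Ea-ps, H2-Q4 and H2-DMa. DESeq2 gave 0 genes at the adjusted threshold and 10 lower at the unadjusted threshold, and limma-voom gave 0 and 6. Over all genes, 866 of 14719 and 833 of 14727 had such an unadjusted p in either direction. With 1 library left out at a time, the number of the 36 genes lower at an unadjusted p under 0.05 also varied. It was 1, 2 and 19 without PreIR-GFP 4, 2 and 3, and 3, 4 and 6 without PreIR-NTN 3, 4 and 5. The all-gene numbers in either direction were 1137 of 14644, 672 of 14598 and 830 of 14641 without PreIR-GFP 4, 2 and 3. They were 681 of 14631, 712 of 14647 and 893 of 14617 without PreIR-NTN 3, 4 and 5.

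Within the class I list, H2-Bl had a log2 fold change of -1.22 (SE 0.45, adjusted p = 0.738), H2-M3 of -0.54 (SE 0.21, adjusted p = 0.776), H2-T10 of -0.96 (SE 0.38, adjusted p = 0.789) and H2-Q6 of -0.96 (SE 0.39, adjusted p = 0.7935). Without PreIR-GFP 4 alone the median over the 36 genes was -0.21, with 30 below 0. Without PreIR-GFP 2 and 4, 15 of 35 genes were below 0 and 20 above, and the medians were 0.17 for class I, -0.13 for class II and 0.36 for peptide supply. By edgeR, 2 of the 35 were higher and 0 lower there at an unadjusted p under 0.05. Over all genes, 1011 of 14454 had such a p in either direction. Both libraries were left out for being high in these genes, so the count cannot test for an increase. The medians of class I and of peptide supply thus changed sign without 2 of the 5 PreIR-GFP libraries, while that of class II kept its sign at a smaller size. The median of 5 granular tubule markers moved as well, from 0.24 to 1.43, and from -0.75 to -1.95 for PreIR-GFP against NonIR. For 6 acinar markers these medians went only from 0.20 to 0.18 and from 0.08 to 0.07. PreIR-GFP 1 and 5, which remained, had the largest TMM factors (1.42 and 1.24). The part of gland composition in the changed MHC medians was not tested. Leaving out PreIR-NTN 3, the lowest library, left 32 of 36 genes below 0 with a median of -0.45.

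**Figure D3:**
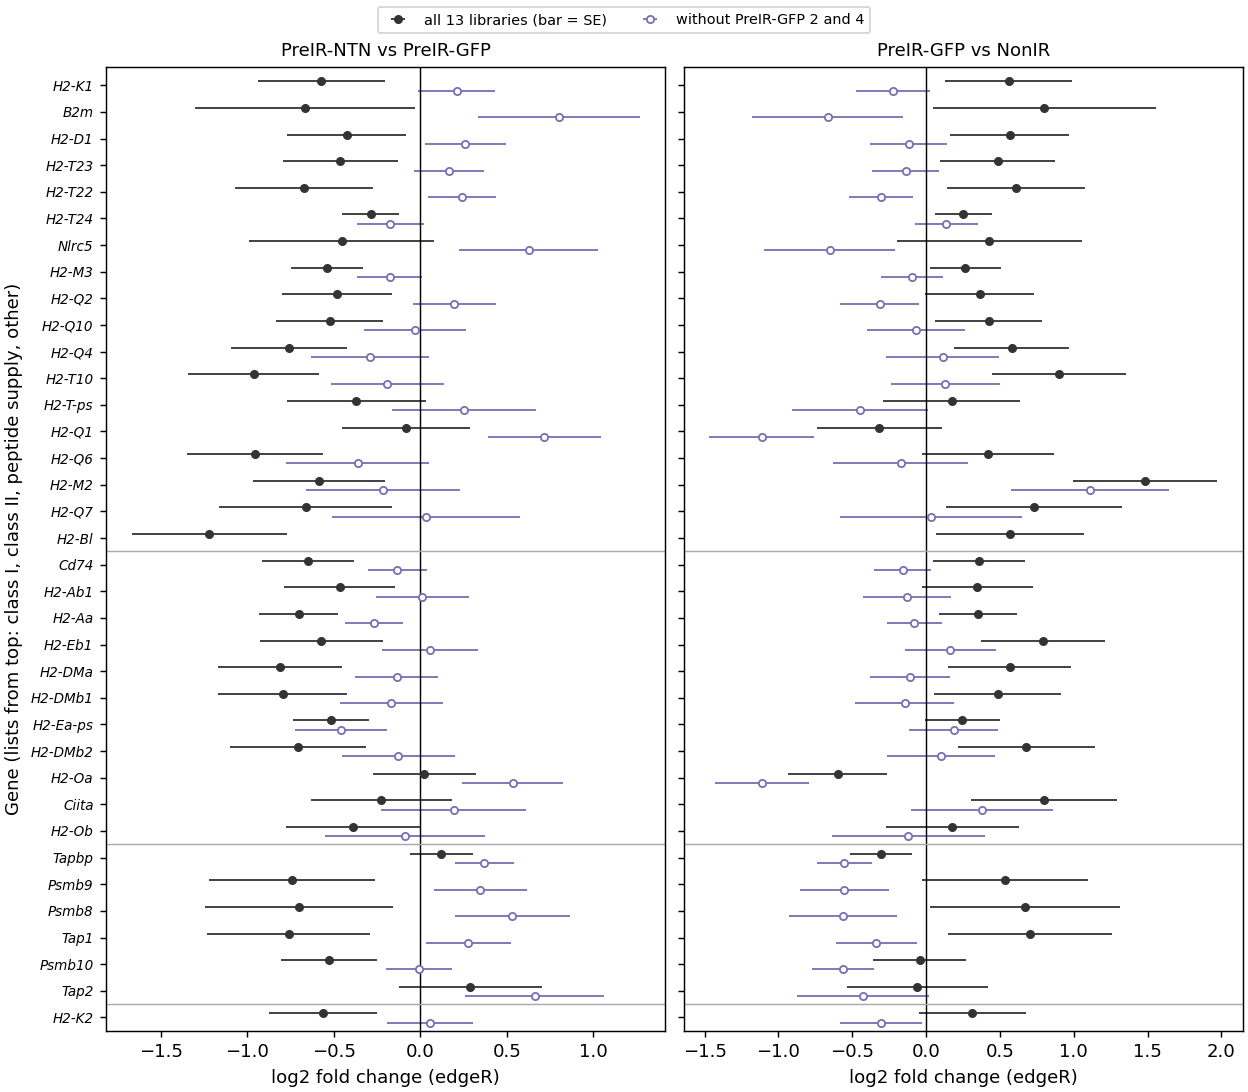
log2 fold change of each gene (rows) for PreIR-NTN against PreIR-GFP (left) and PreIR-GFP against NonIR (right), with all 13 libraries (filled points) and without PreIR-GFP 2 and 4 (open points); bars are standard errors, and H2-Bl was not tested without those libraries. With all libraries, 33 of 36 points lie left of 0 on the left and 31 of 36 right of 0 on the right, while the open points of class I and peptide supply lie mostly on the opposite side.

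For PreIR-GFP against NonIR, which holds irradiation and the control vector together, the log2 fold change was above 0 for 31 of 36 genes, against 52.7% of all genes. The median was 0.46 for the 36 genes and 0.02 for all, with 0.52 for class I, 0.36 for class II and 0.24 for peptide supply. None passed the edgeR adjusted threshold, where 0.0204% of all genes passed as higher and 0.0136% as lower. At an unadjusted p under 0.05, 1 gene was higher (H2-M2) and none lower, against 5.17% and 3.35% of all genes. DESeq2 called 0 and had 3 higher at an unadjusted p under 0.05, and limma-voom called 0 and had 1. Over all genes, 1234 of 14719 and 1143 of 14727 had such a p in either direction. The next lowest p belonged to H2-T10, with a log2 fold change of 0.90 (SE 0.45, adjusted p = 0.622). Without PreIR-GFP 2 and 4, 26 of 35 genes were below 0, and the medians were -0.14 for class I, -0.11 for class II and -0.55 for peptide supply. By edgeR, 4 of the 35 were lower there at an unadjusted p under 0.05, where 1397 of 14454 genes had such a p in either direction. PreIR-GFP 2 and 4 were left out for being high in these same genes. Lower values follow in part from that choice, so this count cannot test for a decrease. Without PreIR-GFP 4 alone the median over the 36 genes was 0.09. The groups overlapped for every one of the 36 genes in this comparison, where 2.87% of all genes did not overlap and were higher and 2.27% lower, and likewise between PreIR-NTN and PreIR-GFP, where the shares were 0.394% higher and 0.720% lower.

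For PreIR-NTN against NonIR, the log2 fold change was below 0 for 28 of 36 genes, against 49.5% of all genes, and above 0 for 8, against 50.5%, with a median of -0.12 (class I -0.06, class II -0.25, peptide supply -0.12). None passed the edgeR adjusted threshold, where 0.0136% of all genes passed as higher and 0% as lower, and 0 had an unadjusted p under 0.05 by edgeR, DESeq2 or limma-voom, against 4.07% higher and 3.59% lower of all genes by edgeR. The lowest p after H2-M2 (log2 fold change 0.90, SE 0.50, adjusted p = 0.713) and Psmb10 belonged to H2-Oa and H2-Aa. H2-Aa had a log2 fold change of -0.35 (SE 0.26, adjusted p = 0.8035) and H2-Bl of -0.65 (SE 0.54, adjusted p = 0.825). Without NonIR 2 or without PreIR-NTN 3, 20 and 19 of the 36 genes were below 0, with medians of -0.01 and -0.02. Each comparison shares libraries with the other 2, so their values are not independent of each other.

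To compare class I with class II, CPM values were divided by exon length in kb and summed. Exon length was that of all annotated exons of a gene combined, so that these levels depend on the annotation. The 17 class I heavy chains (pseudogenes and H2-M5 included) summed to 421 ± 66.7 (SD, n = 3) CPM per kb in NonIR, 612 ± 349.9 (n = 5) in PreIR-GFP and 423 ± 110.4 (n = 5) in PreIR-NTN. The 9 class II chains summed to 133 ± 17.5, 184 ± 87.7 and 124 ± 28.03 CPM per kb. Both sums were highest in PreIR-GFP 4 (1130.1 and 328 CPM per kb), next in PreIR-GFP 2 (818 and 205) and lowest in PreIR-NTN 3 (268 and 83.2). Their ratio varied much less, from 2.52 in PreIR-GFP 5 to 3.99 in PreIR-GFP 2. By group it was 3.17 ± 0.40 (SD, n = 3) in NonIR, 3.23 ± 0.63 (n = 5) in PreIR-GFP and 3.38 ± 0.26 (n = 5) in PreIR-NTN. The group ranges of the ratio overlapped, and the group means differed by less than the SD within PreIR-GFP. Per kb, B2m was the highest gene on average (513 CPM per kb over 13 libraries), followed by H2-K1 (329.7), Cd74 (227), H2-D1 (89.7), H2-Ab1 (48.2), H2-Eb1 (47.4) and H2-Aa (30.3). This order depends on the lengths used. By mean CPM, H2-Aa (115, with 3798 bases of exons) lay above H2-Eb1 (92.1, with 1944 bases).

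**Figure D4:**
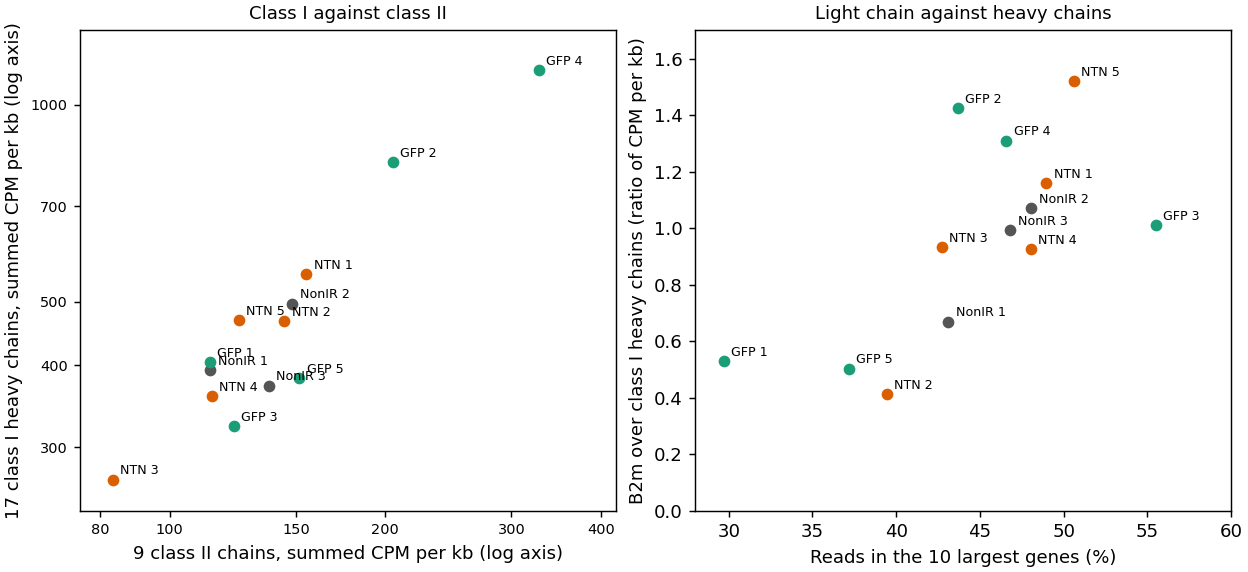
Left: summed CPM per kb of 17 class I heavy chains against that of 9 class II chains, on log axes, where each point is a library. Right: ratio of B2m to the class I heavy chains (both in CPM per kb) against the share of reads in the 10 largest genes. The class sums rise together from PreIR-NTN 3 to PreIR-GFP 4, and the lowest B2m ratios belong to the 3 libraries with the smallest share of reads in the largest genes.

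Cd74 stayed near the class II chains, with a ratio of 1.29 to 2.11 in CPM per kb. The ratio of B2m to the class I heavy chains varied far more, from 0.412 in PreIR-NTN 2 to 1.52 in PreIR-NTN 5. By group it was 0.910 ± 0.213 (SD, n = 3), 0.955 ± 0.429 (n = 5) and 0.990 ± 0.403 (n = 5) for NonIR, PreIR-GFP and PreIR-NTN. The lowest ratios, in PreIR-NTN 2, PreIR-GFP 5 (0.502) and PreIR-GFP 1 (0.529), were in the 3 libraries whose 10 largest genes took the smallest share of reads (39.5%, 37.2% and 29.7%, against 42.7% to 55.5% in the others). Those libraries also had the 3 largest TMM scaling factors (1.18, 1.24 and 1.42). The part of library composition in the level of B2m was not tested.

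Within groups, the genes of the set varied together. After subtraction of the group means, the median Pearson correlation over 13 libraries was 0.75 between pairs of class I genes, 0.64 between pairs of class II genes, 0.71 between a class I and a class II gene and 0.83 between pairs of peptide supply genes. All pairs share libraries, depth and scaling, and for class I also sequence. Pairs of other genes were not measured in this way. The values therefore cannot show whether the set varied together more than genes in general. Without PreIR-GFP 2 and 4 these medians were 0.52, 0.49, 0.50 and 0.62.

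With all 13 libraries, other genes of antigen processing had list medians nearer to 0 between the irradiated groups. None of these genes passed the edgeR adjusted threshold in any comparison. For PreIR-NTN against PreIR-GFP, class I loading and trimming genes such as Calr and Erap1 were below 0 in 5 of 8 (median log2 fold change -0.03) and the standard catalytic proteasome subunits Psmb5, Psmb6 and Psmb7 in 2 of 3 (median -0.03). The 7 class II processing genes, among them cathepsin S (Ctss), were below 0 in 7 of 7 with a median of -0.15, and 2 of 7 had an unadjusted p under 0.05. For PreIR-GFP against NonIR the medians of these 3 lists were -0.18, -0.13 and 0.07, and for PreIR-NTN against NonIR they were -0.20, -0.17 and -0.05. Of the costimulatory genes, Cd86 and Cd40 passed the filter and had a median of -0.44 for PreIR-NTN against PreIR-GFP, and Cd80 did not pass. Without PreIR-GFP 2 and 4 the lists were no longer nearer to 0 than class I (0.17) and class II (-0.13) in that comparison. Their medians were 0.22 for loading and trimming, 0.32 for the standard subunits, -0.20 for class II processing and -0.62 for costimulation. Peptide supply was at 0.36 there.

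Interferon-stimulated genes had their highest mean in the same library. Of 22 listed, 21 passed the filter (Socs1 did not), and their mean centred log2 CPM was 1.07 in PreIR-GFP 4, 0.63 in NonIR 2 and 0.47 in PreIR-GFP 2. Their summed level was 421 to 976 CPM in NonIR, 429.6 to 1689.6 CPM in PreIR-GFP and 414 to 720.1 CPM in PreIR-NTN. For PreIR-NTN against PreIR-GFP, 18 of 21 were below 0 with a median log2 fold change of -0.44, and 13 of 21 were above 0 with a median of 0.04 without PreIR-GFP 2 and 4. None passed the edgeR adjusted threshold in any comparison. NonIR 2, second for these genes, was second for peptide supply as well (0.49), but ranked below PreIR-GFP 2 for class I. The part of interferon signalling in the levels of MHC genes was not tested.

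**Figure D5:**
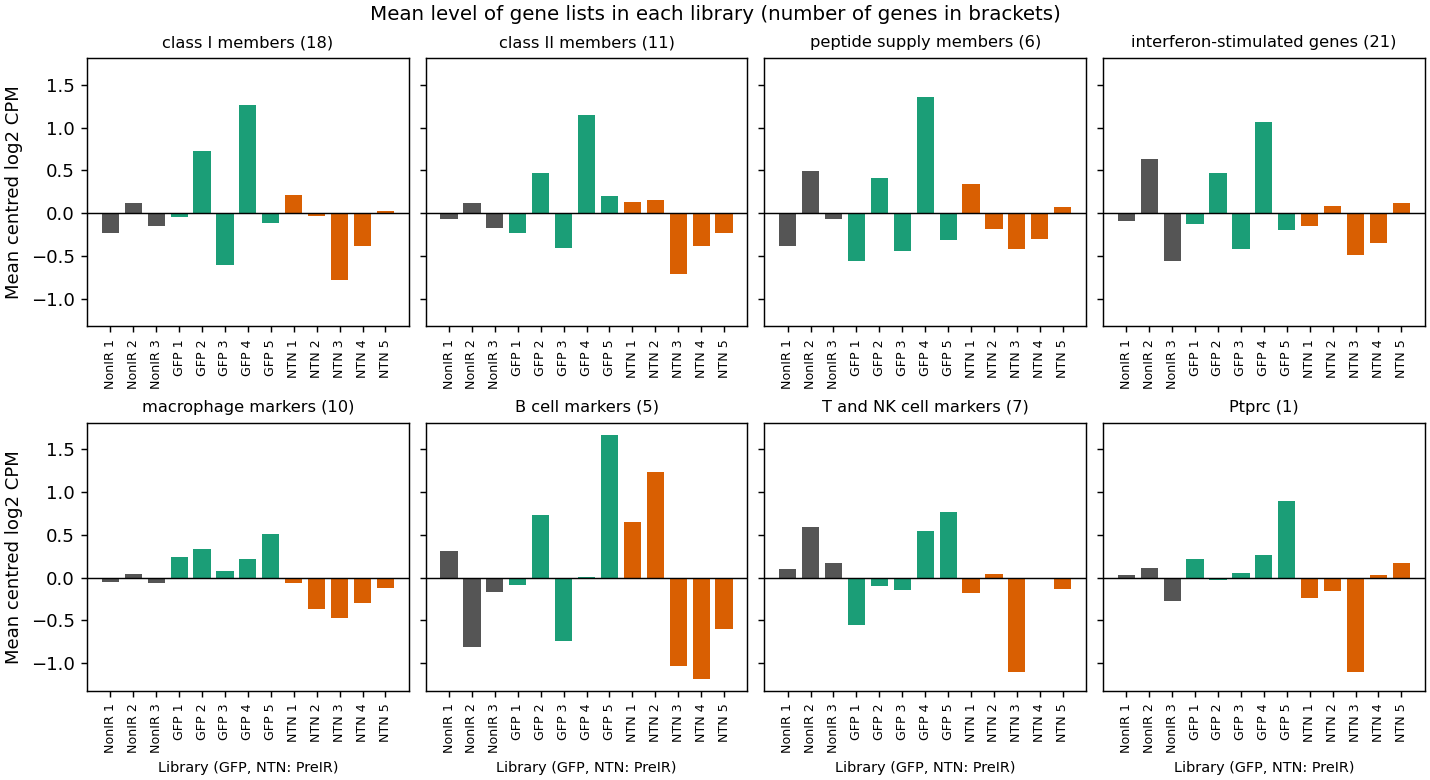
Mean log2 CPM, centred on each gene's mean over 13 libraries, of 8 gene lists in each library (grey NonIR, green PreIR-GFP, orange PreIR-NTN). Class I, class II, peptide supply and interferon-stimulated genes peak in PreIR-GFP 4, whereas macrophage, B cell, T and NK cell markers and Ptprc peak in PreIR-GFP 5.

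In whole tissue, fewer cells of a type and less RNA per cell cannot be told apart, so markers of immune and stromal cells were measured beside the MHC genes. Macrophage markers (10 of 10 passing the filter) summed to 126 to 138 CPM in NonIR, 138 to 219.5 CPM in PreIR-GFP and 87.1 to 129.7 CPM in PreIR-NTN. For PreIR-NTN against PreIR-GFP, 10 of 10 were below 0 (median -0.45), against 52.7% of all genes, and 7 at an unadjusted p under 0.05, against 3.56%. None passed the adjusted threshold, and without PreIR-GFP 2 and 4 it was 9 of 10 (median -0.40). B cell markers (5 of 8 passing) summed to 3.54 to 6.43, 3.91 to 18.5 and 2.54 to 11.6 CPM, and T and NK cell markers (7 of 9) to 16.9 to 24.8, 11.02 to 26.6 and 6.60 to 18.9 CPM. Dendritic cell markers (7 of 10, without Flt3, Clec9a and Batf3) summed to 22.0 to 26.9, 21.4 to 32.8 and 19.9 to 29.6 CPM. No marker of these 4 lists was at 0 reads in all 13 libraries. For PreIR-NTN against PreIR-GFP, T and NK cell markers were below 0 in 7 of 7 (median -0.40) and B cell markers in 4 of 5 (median -0.46). Dendritic cell markers were below 0 in 4 of 7 (median -0.11), and the log2 fold change of Ptprc was -0.53. None passed the adjusted threshold. Without PreIR-GFP 2 and 4 these values were -0.35, -0.68, -0.32 and -0.65. Macrophage, B cell, and T and NK cell markers, and the leukocyte gene Ptprc, had their highest mean in PreIR-GFP 5 (0.51, 1.67, 0.76 and 0.90 on the centred log2 scale), where class I was at -0.12 and class II at 0.20. In PreIR-GFP 4 these 4 means were 0.22, 0.01, 0.54 and 0.26, which ranked it 4, 6, 3 and 2 of 13, and the dendritic mean was -0.03, while class II was at 1.14. PreIR-NTN 3 was lowest for macrophage, T and NK cell markers, Ptprc, class I and class II alike.

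Fibroblast markers (5 of 5 passing) summed to 212 to 248 CPM in NonIR, 210.4 to 336 CPM in PreIR-GFP and 120.1 to 167 CPM in PreIR-NTN, so that every PreIR-NTN library was below the other 8. For PreIR-NTN against PreIR-GFP, 5 of 5 were below 0 (median log2 fold change -1.04, and -1.17 without PreIR-GFP 2 and 4), 4 of them at an unadjusted p under 0.05. Dpt, the gene of the matrix protein dermatopontin, was lower in PreIR-NTN at an adjusted p of 0.01735 by edgeR, with a log2 fold change of -1.33 (SE 0.19). No gene, and so not Dpt, passed in this comparison with limma-voom, library totals, only the groups compared or a replicate block. The same held without PreIR-GFP 1 and without PreIR-NTN 1, 4 or 5, each left out alone. Endothelial markers were below 0 in 4 of 5 (median -0.44, and -0.65 without PreIR-GFP 2 and 4). Of the lymph node stroma markers, Cxcl13, a chemokine of B cell follicles, was the only one to pass the filter, and its log2 fold change was -1.70, at an adjusted p of 0.6741 by edgeR. Cxcl13 was at 4.81 CPM in PreIR-GFP 5, against 0.469 to 1.25 CPM in the other PreIR-GFP libraries and 0.435 to 0.652 CPM in PreIR-NTN. The part of cell content in the differences between groups was not tested.

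Close copies limit what can be said of single class I genes. Of the 50-base stretches in the exons of H2-T22 and H2-T10, 53.5% and 50.4% also occurred in another gene of the GRCm38 annotation, and 31.2% and 31.7% in each other. The share was 36.4% for H2-Q4, 35.0% for H2-Q6, 12.8% for H2-D1 and 9.63% for H2-K1. For H2-DMb1 and H2-DMb2 it was 22.7% and 25.9%, mostly with each other. It was 0% for B2m, Cd74, H2-Ab1, H2-Eb1 and H2-Ea-ps, and 0.514% for H2-Aa. The handling of reads that match several genes is not stated in the labels, so levels of H2-T22, H2-T10 and the H2-Q genes are uncertain. H2 genes also differ between strains, and how well reads of the strain labelled CH3 align to the C57BL/6J reference was not tested.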

How the data were processed

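RNA of 13 submandibular gland libraries was measured. Per the labels' protocols, cDNA was made by SMART-Seq v4 and tagged with Nextera XT. Alignment was by STAR 2.5.2a to GRCm38.p3 (mm10), per the submitters' processing notes, and no source used here names the counting tool. The series description names triplicates, unlike the sample labels, which were followed. The count values that the authors deposited cover 48709 genes and 24 spike-in or transgene entries, which held at most 5.85e-05% of a library and were left out. A second deposited table holds normalized signal values for 17957 genes, each with at least 6 reads in a library. Dividing by a constant per library recovered whole reads (100% of values within 0.001 of a whole number), and the same fit on those reads called 3, 5 and 2 genes, as many as on the counts.

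Counts were filtered with filterByExpr, scaled by TMM and fitted with the robust quasi-likelihood test of edgeR 4.0.16 (R 4.3.3) over all 13 libraries, with a mean per group. Comparisons were PreIR-NTN against PreIR-GFP, PreIR-GFP against NonIR and PreIR-NTN against NonIR. P-values are two-sided, adjusted by Benjamini-Hochberg over 14727 genes, with a threshold of 0.05. Centred values are log2 CPM with a prior count of 2. Libraries held 9724301 to 16771003 reads, and no molecular identifiers were counted, so reads are not independent molecules. The alternatives were RLE factors, library totals, DESeq2 1.42.0, limma-voom 3.58.1, limma on the deposited signal with a pseudocount of 0.5, every gene with at least 1 read, only the groups compared, a replicate block and leaving out libraries; leaving out PreIR-GFP 2 and 4 together was chosen after seeing the data. The fit was also run on simulated counts, with a result that is not reported here. Those counts were drawn independently for each gene and library. They held no shift shared by many genes of a library, so the run cannot tell how the fit treats such a shift.

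Members and lists were chosen with earlier results of these data known. Named in full were 12 leading genes (H2-K1, H2-D1, B2m, H2-Aa, H2-Ab1, H2-Eb1, Cd74, Ciita, Nlrc5, Tap1, Psmb8, Psmb9) and, in each comparison, the 5 of lowest unadjusted p; other genes named with fewer values were picked after their values were seen. Promoter sequences are from RefSeq on GRCm38.p6, and exon lengths and coordinates from a GRCm38 annotation. A list of transcriptional regulators of antigen presentation is not reported here.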

Additional observations from a re-analysis of the deposited data

Results flagged for a closer look

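H2-Q6, a nonclassical class I gene, had its highest PreIR-NTN value in PreIR-NTN 1, at 2.15 CPM, far from the other 4 libraries of the group, of which the next was at 0.943 CPM. The gap was 0.727 of the group's range, above the critical value of 0.71 for 5 samples. Of 48 groups of values examined this way, 1 exceeded its critical value, and chance alone gives about 1 in 20. H2-K1, H2-D1 and Nlrc5 also had their highest PreIR-NTN value in PreIR-NTN 1.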

How the results depend on the processing

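None of the 36 genes passed the adjusted threshold under any alternative run. The number of all genes called for PreIR-NTN against PreIR-GFP (3), PreIR-GFP against NonIR (5) and PreIR-NTN against NonIR (2), in that order, was 0, 0 and 0 with library totals, 38, 53 and 25 with DESeq2, 0, 0 and 1 with limma-voom, 20, 25 and 11 with every gene of at least 1 read, 0, 0 and 1 with only the groups compared, and 7, 11 and 1 without PreIR-GFP 2 and 4. For PreIR-GFP against NonIR it was also 0 with RLE factors and 0 with limma on the deposited signal. With each library left out in turn it ranged from 0 to 9, from 0 to 14 and from 0 to 2. With the replicate block it was 0, 1 and 0, and the block median of peptide supply for PreIR-GFP against NonIR was -0.05 instead of 0.24. Deviations of same-numbered libraries correlated between -0.43 and 0.28, and those of differently numbered libraries between -0.50 and 0.53. These ranges cannot decide whether replicate numbers pair the libraries, and the labels do not state it. The cause of the changes between runs was not tested.

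Without PreIR-GFP 2 and 4, the median log2 fold change of PreIR-NTN against PreIR-GFP was 0.17 for class I and 0.36 for peptide supply, and of PreIR-GFP against NonIR -0.14, -0.11 and -0.55 for class I, class II and peptide supply. There, 17 of 35 genes changed sign for PreIR-NTN against PreIR-GFP and 21 of 35 for PreIR-GFP against NonIR. Among the genes named by the rule, those for PreIR-NTN against PreIR-GFP were Ciita (0.19), Psmb8 (0.53), Tap1 (0.28), H2-Eb1 (0.056), B2m (0.80), H2-K1 (0.21), H2-D1 (0.26), H2-Ab1 (0.012), Nlrc5 (0.63) and Psmb9 (0.35). For PreIR-GFP against NonIR they were H2-M3 (-0.094), Psmb8 (-0.56), Cd74 (-0.16), H2-Aa (-0.081), Tap1 (-0.34), B2m (-0.67), H2-K1 (-0.22), H2-Q6 (-0.17), H2-D1 (-0.12), H2-Ab1 (-0.13), Nlrc5 (-0.65) and Psmb9 (-0.55). Removing the highest libraries of PreIR-GFP moves its mean down by construction. H2-Oa was at -0.028 with library totals for PreIR-NTN against PreIR-GFP, and B2m at -0.00115 for PreIR-NTN against NonIR with limma on the deposited signal.

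With each library left out in turn, the log2 fold change of PreIR-NTN against PreIR-GFP ranged from -0.14 to 0.24 for H2-Oa, from -0.40 to 0.18 for Ciita and from -0.72 to 0.11 for Nlrc5. For PreIR-GFP against NonIR it ranged from -0.41 to 0.15 for Psmb10 and from -0.14 to 0.87 for Nlrc5. For PreIR-NTN against NonIR it ranged from -0.13 to 0.43 for B2m, from -0.24 to 0.12 for H2-T10, from -0.22 to 0.33 for Psmb8, from -0.25 to 0.24 for Tap1, from -0.13 to 0.14 for H2-K1, from -0.29 to 0.016 for H2-Ab1, from -0.30 to 0.41 for Nlrc5, from -0.40 to 0.22 for Psmb9 and from -0.021 to 0.27 for H2-D1. H2-Bl rests on few reads and was not tested without PreIR-GFP 2 and 4.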
